A study of Homo sapiens with 12 samples.

Results

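The genes described are H2AX, H1-4, H2AC21, H1-2 and H2AZ1, 5 human histone genes measured in a lung cancer cell line treated with erlotinib, with quinacrine or with both. They were chosen by their symbols in the probe annotation (older names H2AFX, HIST1H1E, HIST2H2AB, HIST1H1C and H2AFZ), and each had a single array row. They are 5 of 42 histone genes, and of 22395 genes in all, that had an array row of their own. The choice was made with results of these arrays known. H2AX had been selected on its fall against untreated cells, H1-4 and H2AC21 on their falls against erlotinib, and H1-2 and H2AZ1 were listed beside them. The values of these genes with against without quinacrine are therefore given as a description, with no p-value.

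RNA came from NCI-H1975, a human lung adenocarcinoma line whose EGFR gene, coding for the epidermal growth factor receptor, carries L858R, an activating change, and T790M, which confers resistance to erlotinib. All groups share this genotype and were grown in medium with fetal bovine serum. The groups were 1 untreated array with no stated time, 4 arrays of cells in 1 µM erlotinib, an EGFR kinase inhibitor (6, 12, 24 and 48 h), 3 arrays in 3 µM quinacrine, an acridine antimalarial (6, 12 and 24 h), and 4 arrays in 1 µM erlotinib with 3 µM quinacrine (6, 12, 24 and 48 h), called the combination below. Each treatment and time had 1 array, so no condition had a replicate and n counts time points. No label says that 2 arrays came from different cultures, so the p-values below reflect the spread between these arrays alone, which may be technical. In a cell line grown alone there is 1 cell type by label, and fewer cells of a state and less RNA per cell cannot be told apart in such bulk RNA.

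Histones are the proteins around which DNA is wound. H2A, H2B, H3 and H4 form the core of the nucleosome, and H1 proteins bind the linker DNA between cores. Most histone genes are replication-dependent: they lie in clusters, are transcribed in S phase, and give RNAs that end in a stem-loop in place of a poly(A) tail. Variant genes such as H2AZ1 are transcribed through the whole cell cycle into polyadenylated RNA. H2AX gives both kinds of RNA, and its protein is the H2A variant that is phosphorylated around DNA double-strand breaks. The title of the study names FACT, a chaperone that moves H2A-H2B dimers in and out of nucleosomes.

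The 250 bases before the start of H2AX, H1-4 and H2AC21 are shown because these genes were low together on the arrays with quinacrine. H1-2 is shown beside them as a linker histone gene, like H1-4, whose groups overlapped. The sequences are from RefSeq on GRCh38.p14, from 5′ to 3′ on the strand of the gene, at chr11:119095466-119095715 (minus strand) for H2AX, chr6:26156079-26156328 (plus) for H1-4, chr1:149887966-149888215 (minus) for H2AC21 and chr6:26056471-26056720 (minus) for H1-2. Capitals mark matches, on either strand, to CCAAT (bound by NF-Y), TATAAA (the TATA box), AAACACA (a repeat of H1 promoters) and ATGCAAAT (the octamer bound by POU2F1). No match overlapped another.
H2AX: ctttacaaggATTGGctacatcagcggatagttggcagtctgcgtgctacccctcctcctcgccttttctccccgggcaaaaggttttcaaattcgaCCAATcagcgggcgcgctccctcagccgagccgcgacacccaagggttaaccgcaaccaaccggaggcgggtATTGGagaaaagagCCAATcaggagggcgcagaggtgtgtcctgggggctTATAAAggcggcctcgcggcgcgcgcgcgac
H1-4: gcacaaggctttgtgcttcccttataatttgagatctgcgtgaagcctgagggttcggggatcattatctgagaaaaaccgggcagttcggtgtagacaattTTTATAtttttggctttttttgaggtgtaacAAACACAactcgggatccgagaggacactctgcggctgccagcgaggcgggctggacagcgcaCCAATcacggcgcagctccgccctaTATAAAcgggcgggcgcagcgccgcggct
H2AC21: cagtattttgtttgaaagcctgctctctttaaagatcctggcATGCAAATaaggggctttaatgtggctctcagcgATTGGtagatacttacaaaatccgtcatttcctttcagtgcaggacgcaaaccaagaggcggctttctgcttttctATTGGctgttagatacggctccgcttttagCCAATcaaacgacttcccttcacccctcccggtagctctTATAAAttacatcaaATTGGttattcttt
H1-2: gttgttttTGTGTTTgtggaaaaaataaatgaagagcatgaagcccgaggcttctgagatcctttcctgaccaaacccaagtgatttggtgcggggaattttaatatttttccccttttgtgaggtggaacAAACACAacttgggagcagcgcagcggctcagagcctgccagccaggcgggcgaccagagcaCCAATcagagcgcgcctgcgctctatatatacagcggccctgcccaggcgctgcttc

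In this window H2AX held 4 matches to CCAAT, H2AC21 4, H2AZ1 3, and H1-4 and H1-2 1 each. The CCAAT match nearest the start lay 67 bases before it in H2AX, 54 bases in H1-4 and 57 bases in H1-2, each on the strand of the gene, and 14 bases before it in H2AC21, on the other strand. TATAAA was found 31 bases before the start of H2AX and 29 bases before the starts of H1-4 and H2AC21, and H1-2 had no such match. AAACACA was found 117 bases before the start of H1-4 and 119 bases before that of H1-2, which also held a second match farther upstream. The octamer was found in H2AC21 alone among these 5 genes. Over all 35116 promoter entries, CCAAT was present in 32.0%, and at least 3 matches in 2.93%. TATAAA was present in 10.7%, AAACACA in 4.82% and ATGCAAAT in 1.63%. Of 44 entries of the histone genes on the array, 39 held CCAAT, 26 TATAAA, 7 AAACACA and 15 the octamer. CCAAT and the TATA box were thus found before genes that were low with quinacrine and before histone genes that were not. A match describes these letters only.

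H2AX was lower on every array with quinacrine than on every array without it. Its RMA level (log2 scale, as deposited) was 9.02 on the untreated array. In order of time, the 4 erlotinib arrays read 8.73, 8.65, 8.91 and 8.77. The 3 quinacrine arrays read 7.73, 7.68 and 7.87, and the 4 combination arrays 7.90, 7.64, 7.86 and 7.86. The 7 arrays with quinacrine lay between 7.64 and 7.90 and the 5 without it between 8.65 and 9.02, leaving a gap of 0.75. In each treated group the 12 h array was the lowest. The fitted log2 difference between combination and erlotinib was -0.95 (SE 0.09, n = 4 time points per group), a 1.93-fold lower level, and that between quinacrine and erlotinib was -0.997 (SE 0.10, 3 matched times), or 2.00-fold. Against the lone untreated array the differences were -1.26 (SE 0.16) for quinacrine and -1.21 (SE 0.15) for the combination. These comparisons share arrays, and each gives the same low values of H2AX against another reference.

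The distance of H2AX from erlotinib differed little between times. In order of time, combination minus erlotinib was -0.83, -1.01, -1.05 and -0.91, and quinacrine minus erlotinib was -1.0, -0.97 and -1.04 at 6, 12 and 24 h. The combination difference was smallest at 6 h. Over all 5820 tested genes the median difference between the combination and erlotinib arrays, by time, was -0.27, 0.14, 0.04 and -0.02. The combination 6 h array had the lowest median over tested genes, 6.18 against 6.39 to 6.56 on the others, and the smallest interquartile range over all rows, 2.04 against 2.26 to 2.88. Over all 19 alternatives, leaving that array out among them, the fitted H2AX difference over the matched times ranged from -0.99 to -0.92. Some of these, such as the filter and the prior, cannot change it. That range does not cover the 6 h difference on its own. The fall of H2AX was the 37th largest of 5820 against erlotinib with the combination and the 33rd with quinacrine.

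**Figure D1:**
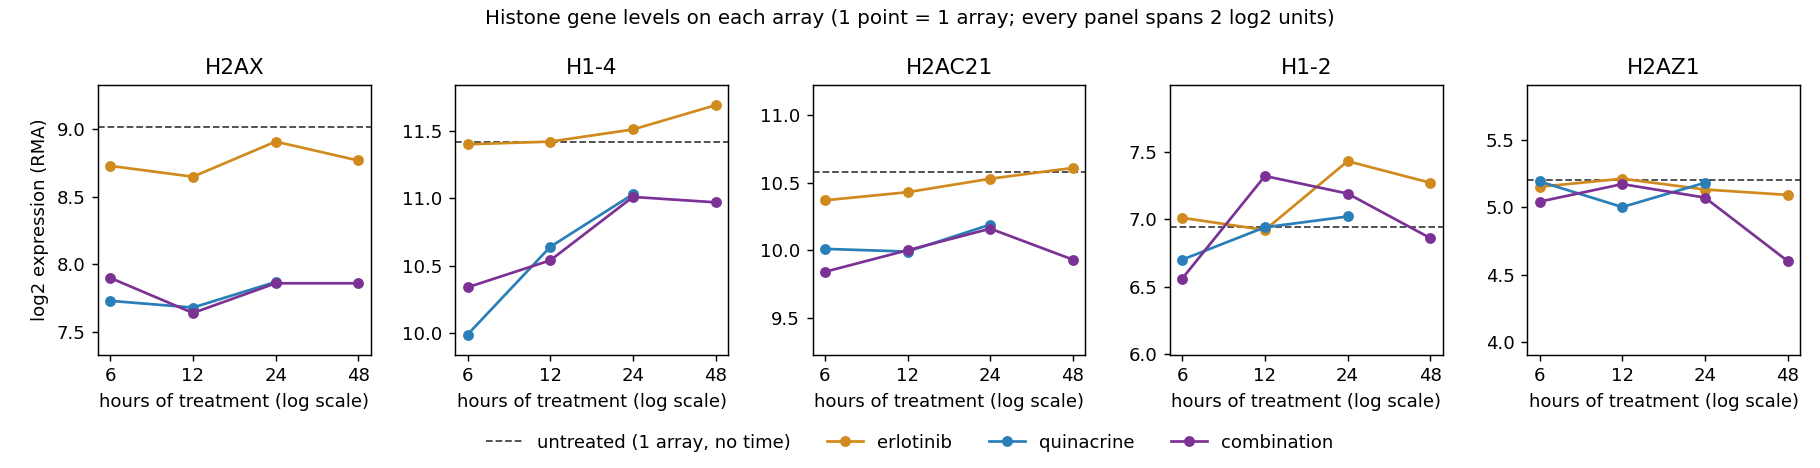
Level of each of the 5 histone genes (log2, RMA) against hours of treatment on a log axis, with 1 point per array, lines joining the arrays of a treatment, and a dashed line at the untreated array. H2AX, H1-4 and H2AC21 have both lines with quinacrine under the erlotinib line at every time. For H1-2 both lines cross the erlotinib line. For H2AZ1 the quinacrine line crosses it, and the combination line lies under it at every time.

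H1-4 codes for a linker histone, H1.4. It was also low with quinacrine, and its level with quinacrine was higher at later times. It stood at 11.42 on the untreated array and, in order of time, at 11.40, 11.42, 11.51 and 11.69 with erlotinib. The quinacrine arrays read 9.99, 10.64 and 11.03. The combination arrays read 10.34, 10.54, 11.01 and 10.97. The highest array with quinacrine, at 11.03, lay 0.37 under the lowest without it. The fitted difference from erlotinib was -0.79 (SE 0.15, n = 4 time points per group) for the combination, or 1.73-fold, and -0.88 (SE 0.16) for quinacrine, or 1.84-fold. At matched times quinacrine minus erlotinib was -1.41, -0.78 and -0.48 at 6, 12 and 24 h, and combination minus erlotinib was -1.06, -0.88, -0.50 and -0.72 at 6, 12, 24 and 48 h. The difference at 6 h was thus larger than at 24 h with either treatment. For the combination, the median difference over all tested genes was also lower at 6 h (-0.27) than at 24 h (0.04). For quinacrine that median was -0.09 at 6 h and 0.07 at 24 h.

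H2AC21 codes for a core histone H2A and lies in the histone cluster on chromosome 1. Its level was 10.58 on the untreated array and 10.37, 10.43, 10.53 and 10.61 on the erlotinib arrays by time. The quinacrine arrays read 10.01, 9.99 and 10.19, and the combination arrays 9.84, 10.00, 10.16 and 9.93. The groups did not overlap, with 0.18 between the lowest array without quinacrine and the highest with it. The fitted difference from erlotinib was -0.50 (SE 0.09, n = 4 time points per group) for the combination, or 1.42-fold, and -0.41 (SE 0.10) for quinacrine, or 1.33-fold. At matched times combination minus erlotinib ranged from -0.68 at 48 h to -0.37 at 24 h, and quinacrine minus erlotinib from -0.44 at 12 h to -0.34 at 24 h. Histone genes of a family are nearly identical in their coding part, so signal from related transcripts in the rows of H1-4, H2AC21 and H1-2 is uncertain.

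H1-2, the gene of linker histone H1.2, did not separate the groups. Its level was 6.94 on the untreated array and 7.01, 6.92, 7.43 and 7.27 on the erlotinib arrays by time. The quinacrine arrays read 6.70, 6.94 and 7.02, and the combination arrays 6.56, 7.32, 7.19 and 6.86. The arrays with quinacrine, from 6.56 to 7.32, overlapped those without it, from 6.92 to 7.43. The fitted difference from erlotinib was -0.18 (SE 0.15, 95% confidence interval -0.51 to 0.16) for the combination and -0.27 (SE 0.16, interval -0.64 to 0.10) for quinacrine. The combination value rested on single arrays: it was -0.0871 without the combination 6 h array, -0.0967 without either 48 h array, and -0.32 without either 12 h array. The quinacrine value was -0.45 without the erlotinib 12 h array. The quinacrine 6 h array and the combination 6 h and 48 h arrays were lower than every array without quinacrine.

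H2AZ1 codes for H2A.Z, a variant found at the nucleosomes around gene starts. Its level was 5.20 on the untreated array and 5.15, 5.21, 5.13 and 5.09 on the erlotinib arrays by time. The quinacrine arrays read 5.19, 5.00 and 5.18, and the combination arrays 5.04, 5.17, 5.07 and 4.60. The combination 48 h array was the lowest of the 12, and the other arrays spanned 5.00 to 5.21. The fitted differences from erlotinib were -0.18 (SE 0.11) for the combination and -0.09 (SE 0.13) for quinacrine. Without either 48 h array (combination or erlotinib) they were -0.07 and -0.04, and without the quinacrine 12 h array the second was 0. The second was -0.14 without the erlotinib 24 h array or the quinacrine 6 h array. With a mean of 5.09, H2AZ1 stood just above the mean of 5 required for testing. H1-1, at a mean of 4.73, was the nearest histone gene under it. H2AZ2, the gene of the second H2A.Z protein, had a mean of 4.47 and was not tested.

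**Figure D2:**
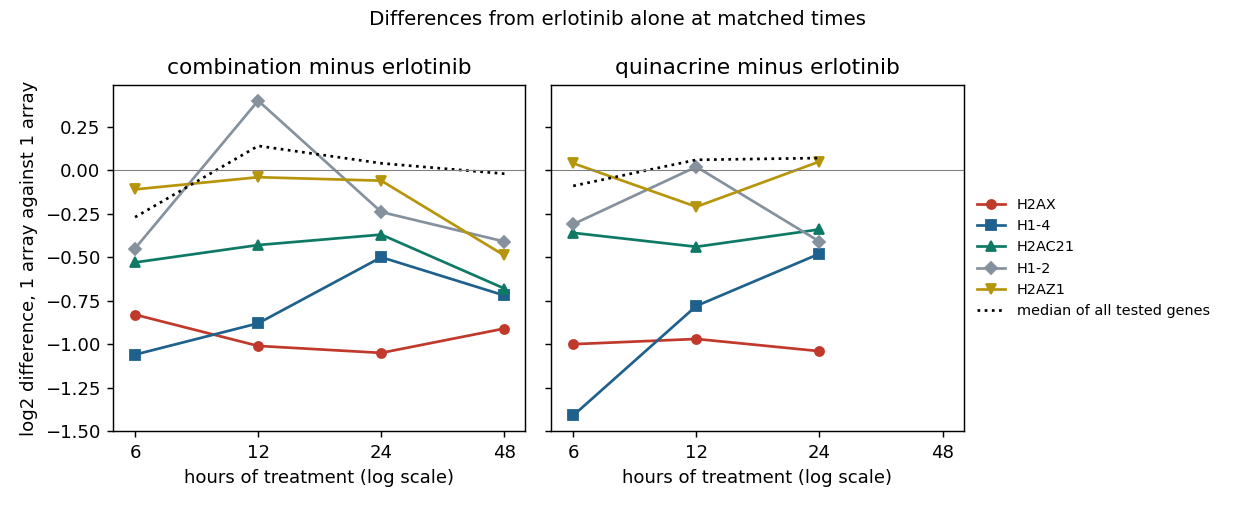
Log2 difference of each of the 5 histone genes from erlotinib alone at each matched time (log time axis), combination on the left and quinacrine on the right, each point 1 array against 1 array, with the median of all tested genes dotted. H2AX stays between -1.05 and -0.83, H1-4 goes from -1.41 at 6 h to -0.48 at 24 h of quinacrine, and H2AC21 stays between -0.68 and -0.34.

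Whether these genes differed between quinacrine with and without erlotinib was tested by comparing the combination with quinacrine at 6, 12 and 24 h. The labels do not say in which order the drugs were given. None of the 5 genes passed the limma test at an adjusted p of 0.05. H2AX differed by 0.05 (95% confidence interval -0.18 to 0.27, limma adjusted p = 1). The difference was 0.09 for H1-4 (interval -0.28 to 0.46), -0.09 for H2AC21 (-0.33 to 0.15), 0.10 for H1-2 (-0.27 to 0.47) and -0.08 for H2AZ1 (-0.37 to 0.20). In this comparison 0% of the 5820 genes were called in either direction. At an unadjusted p under 0.05 there were 47 genes in all and 0 of the 17 tested histone genes.

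Erlotinib alone was compared with the untreated array, which is also part of the values H2AX was selected on. H2AX differed by -0.26 (interval -0.59 to 0.08, limma adjusted p = 0.999), and all 4 erlotinib arrays lay below the untreated one. H1-4 differed by 0.09 (interval -0.66 to 0.83), H2AC21 by -0.10 (-0.44 to 0.25), H1-2 by 0.22 (-0.39 to 0.82) and H2AZ1 by -0.06 (-0.48 to 0.37). None passed, and 0% of all genes were called in either direction by limma. The unadjusted count was 144 of all genes and 0 of the 17 histone genes. The untreated group is 1 array, assumed here to vary like the others.

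Change with time was tested as 1 common slope of the treated groups, in log2 units for each doubling of the hours. H1-4 had the steepest slope of the 5 genes, 0.23 per doubling (SE 0.06, unadjusted p = 0.00258, limma adjusted p = 0.0652 over n = 11 arrays), and did not pass. Without the erlotinib 6 h array, after cyclic loess, or with a robust prior, it did pass. H2AX had a slope of 0.03 (adjusted p = 0.655), H2AC21 0.07 (adjusted p = 0.294), H1-2 0.11 (adjusted p = 0.311) and H2AZ1 -0.07 (adjusted p = 0.372). Over all genes 2.03% were called rising with time and 0.275% falling. The slopes of combination and erlotinib were compared in turn. The difference was 0.14 for H1-4 (adjusted p = 0.541) and -0.12 for H2AZ1 (adjusted p = 0.660), with the other 3 genes between -0.05 and -0.03. None passed, and 0% of all genes were called in either direction. At an unadjusted p under 0.05 there were 770 genes in all and 2 of the 17 histone genes, H1-5 and H2BC3.

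Of the other 37 histone genes with a row of their own, 12 had a mean level of at least 5 and were tested, and 25 lay below. None of the 12 passed the limma test between combination and erlotinib, where 1.43% of all genes were called higher and 2.22% lower. None passed between quinacrine and erlotinib, where 0.515% were called higher and 0.619% lower. At these thresholds 3 of the 17 tested histone genes (H2AX, H1-4 and H2AC21) were called lower in the first and 2 (H2AX and H1-4) in the second, all of them genes chosen with these contrasts known. At an unadjusted p under 0.05, the first comparison held 6 of the 17 and the second 3, against 1212 and 1024 of all genes. H2AX was 1 of 2 genes called lower against the untreated array with quinacrine (0.0344% lower, 0% higher) and 1 of 2 with the combination (0.0344% lower, 0.0172% higher). Nothing is read from these calls, since they chose the genes.

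Of the 12, 9 had a fitted difference below 0 between combination and erlotinib and 3 above, with a median of -0.16 against -0.03 over all tested genes. Between quinacrine and erlotinib 10 were below 0 and 2 above, with a median of -0.15 against 0.01 over all genes. Of all 5820 tested genes, 3209 were below 0 and 2600 above in the first comparison. In the second, 2762 were below 0 and 3057 above. The most negative was H1-10, coding for the replication-independent linker histone H1.10, at -0.44 (SE 0.15, limma adjusted p = 0.162). H3C13 was at -0.42 (adjusted p = 0.257) and H2BC12 at -0.40 (adjusted p = 0.216). The most positive was H2BC3, a core histone H2B gene, at 0.48 (SE 0.24, adjusted p = 0.298). MACROH2A1, the gene of a large H2A variant found in silent chromatin, was at 0.31 (SE 0.11, adjusted p = 0.153) and H2BC13 at 0.11 (adjusted p = 0.661). H2AC20, like H2AC21 an H2A gene of the chromosome 1 cluster, overlapped between groups, at 10.92 to 11.04 without quinacrine and 10.53 to 10.97 with it. H1-10 was the only tested histone gene called in the time slope, at 0.31 per doubling (limma adjusted p = 0.0459). It was called in 7 of 20 alternatives.

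Read without a test, 3 of the 17 tested histone genes had all 7 arrays with quinacrine below all 5 without it, and none had them all above. Over all genes, 4.48% lay entirely below and 2.34% entirely above. The 3 were H2AX, H1-4 and H2AC21, again genes chosen with these arrays in view, and none of the 12 others separated in either direction. The same 3 separated after cyclic loess and after median centring. They also separated without each array in turn, but leaving out an array cannot make separated groups overlap, so this could not have failed. After median centring the gap was narrowest for H2AC21, where the lowest array without quinacrine stood at 10.33 and the highest with it at 10.27.

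**Figure D3:**
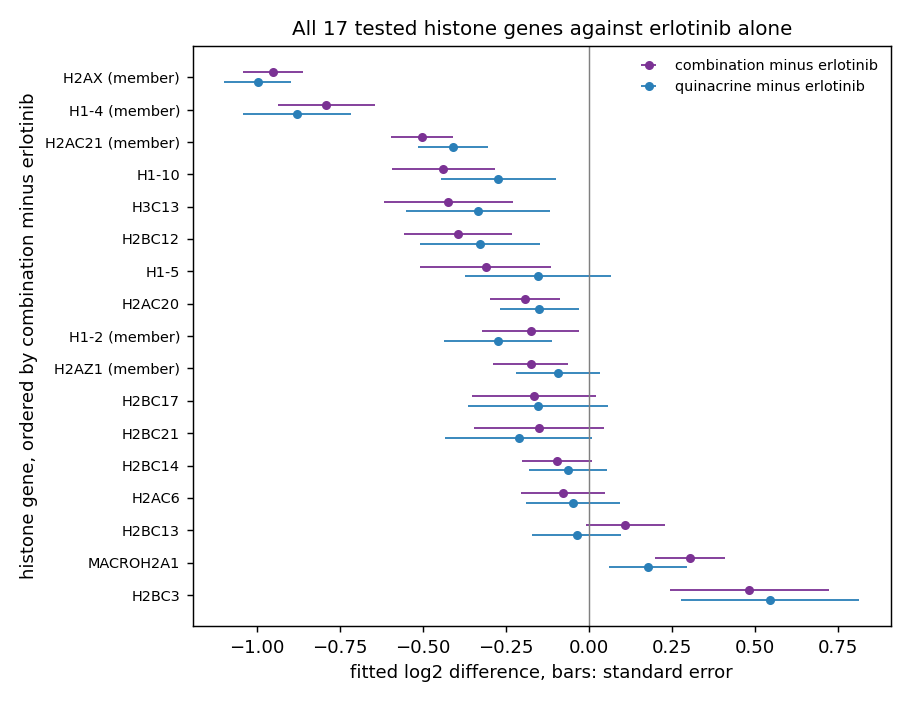
Fitted log2 difference from erlotinib for the 17 tested histone genes, for the combination (4 matched times) and for quinacrine (3 matched times), with bars for the standard error and genes ordered by the combination value. H2AX, H1-4 and H2AC21 are at the low end, at -0.95, -0.79 and -0.50, and H2BC3 at the high end, at 0.48.

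Genes that act on histones were described from lists written with earlier results of these data known. Of 12 tested histone chaperone genes, 1 was called lower with the combination than with erlotinib, where 2.22% of all tested genes were. The same share stands behind the single calls in the lists below, and nothing is read from them about a list. This was CHAF1A, the large subunit of the chromatin assembly factor that places new H3-H4 behind the replication fork (-0.98, SE 0.20, limma adjusted p = 0.0389). Its arrays lay at 6.30 to 6.80 without quinacrine and at 4.52 to 6.13 with it. The FACT subunit genes did not pass: SUPT16H differed by -0.11 (adjusted p = 0.587) and SSRP1 by -0.18 (adjusted p = 0.476). Of 13 genes that transcribe or process histone RNA, none was called. The largest differences were NFYA, a subunit of the CCAAT-binding factor (-0.55, adjusted p = 0.209), and CCNE2, cyclin E2 (-0.51, adjusted p = 0.161). The list had 7 genes above 0 and 6 below, with a median of 0.01.

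Of 11 genes that place or remove H2A.Z, EP400, the ATPase of the TIP60 complex, was called lower (-0.68, SE 0.14, limma adjusted p = 0.0404), and the median was -0.02. EP400 did not have the largest fall of this list, which was -0.88 in a gene that was not called. Of 14 genes for kinases, phosphatases and readers of H2AX, none was called, and the median was -0.17. The largest differences there were RNF168, a ubiquitin ligase that modifies H2A at breaks (-0.39, adjusted p = 0.257), and BRCA1 (-0.34, adjusted p = 0.375). Between quinacrine and erlotinib, RNF168 differed by -0.05 and BRCA1 by 0.02. Of 30 S-phase genes, CDT1, which loads the replicative helicase, was called lower (-0.78, SE 0.15, limma adjusted p = 0.0347), with 26 below 0, 4 above and a median of -0.13. Over all tested genes 3209 were below 0 and 2600 above, with a median of -0.03. Of 8 p53 targets none was called; GDF15 differed by 0.84 (adjusted p = 0.117) and SESN2 by 0.63 (adjusted p = 0.0978), and the median was 0.18. None of the genes in these lists was called between quinacrine and erlotinib, where CHAF1A differed by -0.95, EP400 by -0.70 and CDT1 by -0.64. Over the alternatives CHAF1A was called in 5 of 18, EP400 in 4 of 18 and CDT1 in 6 of 19, all with the same direction.

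Likeness to each histone gene was measured as Pearson's r over the 12 arrays, among tested genes other than histones. The arrays with and without quinacrine formed separate clusters for H2AX, H1-4 and H2AC21, and all genes share the same arrays, so r only describes likeness. Nearest to H2AX were ZNRF1 (r = 0.974), INPP5A (0.971), NOP53 (0.957), TRABD (0.955) and ALDH3B1 (0.952). INPP5A, an inositol phosphatase gene, lay at 7.01 to 7.21 without quinacrine and at 5.41 to 5.87 with it. Nearest to H1-4 were NACC2 (0.972), SGSH (0.965), MED23 (0.958), KIF15 (0.953) and DSN1 (0.950). Like H1-4, NACC2 and DSN1 spread widely on the arrays with quinacrine, from 4.04 to 5.32 and from 5.18 to 6.59. Nearest to H2AC21 were NOP53 (0.947), ICMT (0.931), FASN (0.930), PIGU (0.928) and TGS1 (0.923), so that NOP53 stood in the sets of both H2A genes. For H1-2 the nearest were SLC16A14 (0.924), GRIN2D (0.912), PJA2 (0.908), PHLPP1 (0.881) and BLTP3A (0.880). For H2AZ1 they were CDC42 (0.923), MCM6 (0.902), CDC45 (0.893), DNAAF5 (0.869) and BIRC5 (0.867).

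The cell type label was checked against marker genes. Of 9 named epithelial and lung adenocarcinoma markers, 6 had a mean of at least 5, among them EPCAM (8.35 to 8.67) and CDH1 (10.08 to 10.53). KRT8 (1.98 to 3.48), KRT18 (4.47 to 5.01) and NAPSA (1.97 to 4.08) had lower means. Of 4 leukocyte markers, CD68 (8.21 to 9.07) was above 5, and the defining PTPRC stood at 0.63 to 1.38. No marker of fibroblasts (0 of 4) or endothelium (0 of 2) reached a mean of 5.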

How the data were processed

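Total RNA of 12 samples was measured on Human Gene 2.1 ST arrays (Affymetrix). The authors used Affymetrix Expression Console 1.30, per the submitters' processing notes and design text (RMA: background correction, quantile normalization, summary per probe set, hg19 annotation), and the deposited values are log2 levels with 2 decimals, used as deposited. Precision is limited by the number of arrays. Quantile normalization is meant to set the arrays to one distribution, so a true shift of all genes may have been removed. The deposited values still differed between arrays. Their medians over all rows ran from 1.39 (quinacrine 24 h) to 1.64 (combination 6 h), and the interquartile ranges from 2.04 to 2.88 on the same 2 arrays reversed.

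Of 53617 rows, 23871 had 1 gene symbol, 1842 several and 27904 none. Symbols of 22569 rows were updated through Entrez IDs (90 changed). Of 22395 genes, the 5820 with a mean of at least 5 were tested, a filter that also takes in the treated arrays. Per gene the row with the highest mean was used, and a row annotated to several genes got no name.

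Tests used limma 3.58.1 in R 4.3.3 (lmFit, eBayes, Benjamini-Hochberg over the 5820 genes, threshold 0.05). Treated groups were compared with treatment and time as factors (11 arrays, 5 residual degrees of freedom), where the residual is departure from additivity and not replicate error. Comparisons with the untreated array used group means of 12 arrays (8 residual degrees of freedom). The 2 kinds of slope used log2 of time. The procedure was also run on simulated arrays with independent normal noise for each gene and array. Those had no shift shared by the genes of an array, so no error rate for the real arrays follows from them.

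The members and lists were chosen with earlier results of these data known. The text names the 5 members, the 3 largest rises and falls of the other histone genes, the genes of each list called in the comparisons with erlotinib (otherwise the 2 with the largest difference), SUPT16H, SSRP1 and the 5 most alike genes of each member; H2AC20, H2AZ2, H1-1 and the nonoverlapping or slope genes named outside this rule were picked after their values were seen. The design text also names a 5 µM dose of quinacrine, which no label of these arrays carries. Alternatives covered the filter, scaling, array weights, prior variance, rows, arrays and time.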

Additional observations from a re-analysis of the deposited data

Results flagged for a closer look

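The combination 12 h array stood apart for H2AX. It was at 7.64, while the other 3 combination arrays lay between 7.86 and 7.90. The quinacrine 12 h array, at 7.68, and the erlotinib 12 h array, at 8.65, were also the lowest of their groups. For the combination 12 h array, the gap to the nearest of the others was 0.846 of the range of the group. That is above Dixon's 95% critical value for 4 values. No other array passed that value in the 10 groups of 4 looked at. With 4 replicates chance alone would mark about 1 in 20 groups. These arrays are 4 times of treatment and not replicates, so the value cannot tell an outlying array from a difference between times. The combination 48 h array of H2AZ1, at 4.60, had a wider gap of 0.44, which was 0.772 of its group's range.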

How the results depend on the processing

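The differences of H2AX, H1-4 and H2AC21 with against without quinacrine kept their direction under every alternative that could be fitted. Between combination and erlotinib they ranged from -0.99 to -0.92, from -0.91 to -0.65 and from -0.54 to -0.44. Changing the filter or the prior leaves these fitted differences as they are. The groups did not overlap, so leaving out 1 array could hardly have reversed a direction. The kept direction is therefore little of a check. The counts of called histone genes moved more. For quinacrine or the combination against erlotinib or the untreated array, they count genes chosen with these contrasts known. Nothing is read from those counts about the genes. Between combination and erlotinib the count of 3 fell to 1 (H2AX) with no filter, with median centring and with 6, 12 and 24 h arrays only, and leaving out 1 array gave 1 to 3. H1-4 and H2AC21 each kept their call in 7 of 19 alternatives and H2AX in all 19. Between quinacrine and erlotinib the count of 2 fell to 1 with no filter, median centring, 6, 12 and 24 h arrays or no time term, rose to 3 (H2AC21 added) after cyclic loess and with a robust prior, and was 0 to 2 without 1 array. H2AX lost its call there without any 1 of the 3 quinacrine arrays. Against the untreated array, for quinacrine and for the combination, the count of 1 fell to 0 with no filter, median centring and 6, 12 and 24 h arrays, rose to 2 with array weights (H2AC21 added, at -0.47 for the combination) and was 0 to 1 without 1 array. For the combination that array was the 24 h one. In the time slope the count of 1 fell to 0 with no filter, 6, 12 and 24 h arrays or linear hours, was 2 with a robust prior, and was 0 to 3 without 1 array. The cause was not tested in any of these.

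Small differences changed sign. Combination minus quinacrine of H2AX was -0.0071 with median centring, and without 1 array it ran from -0.002 to 0.078; H1-4 ran from -0.11 to 0.22 and H1-2 from -0.074 to 0.20. The slope difference of H2AX was 0.023 with median centring (-0.08 to 0.072 without 1 array). That of H2AC21 was 0.012 with centring and 0.08 with 6, 12 and 24 h arrays (-0.12 to 0.08). On those arrays H1-2 was at 0.11 (-0.36 to 0.19) and H2AZ1 at 0.025 (-0.26 to 0.041). The 3 histone genes with all quinacrine arrays below were the same under all 14 alternatives, chosen after seeing the data. For these 3 genes, only cyclic loess and median centring could have given another result. Histone genes entirely above were 0 to 1, MACROH2A1 without the quinacrine 12 h array. Array weights could not be fitted for the comparisons among treated groups or the slope difference. Arrays of the treated groups were matched by time, which entered as a factor; the labels give no replicate numbers. H2AZ1 lay just above the filter, and histone genes below the filter were not tested.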

Other observations

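Histone genes of a family are nearly identical, and some array rows are annotated to several of them. Such rows are reported here without gene names. Of 39 rows shared by genes of 1 histone family, 37 held distinct values and 20 had a mean of at least 5. Their mean with quinacrine minus that without had a median of 0.06, against -0.01 over all tested genes. In 1 of the 20 all 7 arrays with quinacrine lay below all 5 without it, and in none above, shares near those of all tested genes (4.48% and 2.34%). That row, shared by 3 H3 genes, lay at 10.11 to 10.28 without quinacrine and at 9.47 to 10.08 with it.

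The following rows, picked after their values were seen, had a higher mean with quinacrine. A row shared by 5 H2B genes was at 6.16 on the untreated array and 5.82, 6.10, 6.19 and 6.08 at 6, 12, 24 and 48 h of erlotinib. It was at 7.28, 7.41 and 6.66 at 6, 12 and 24 h of quinacrine and at 6.72, 7.39, 6.46 and 6.10 at 6, 12, 24 and 48 h of the combination. Its higher values were thus on arrays with quinacrine, and the combination 48 h array was back among those without it. A row shared by 14 H4 genes was at 5.80 to 6.53 without quinacrine and 6.41 to 7.34 with it, and a row shared by 10 H3 genes at 5.10 to 5.97 and 5.39 to 7.27. H2BC3, with a row of its own, was at 7.35, 6.75 and 6.53 at 6, 12 and 24 h of quinacrine, at 7.08, 7.20, 6.63 and 6.04 at 6, 12, 24 and 48 h of the combination, and at 6.13 to 6.77 without quinacrine. In each of these the arrays with quinacrine overlapped those without it, and no test was made.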
